A study of Mus musculus with 20 samples.

Results

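The High-Active and Control lines were compared in the striatum of saline-injected mice, gene by gene. The comparison took the 5 High-Active and 5 Control mice that received saline, 10 of the 20 mice sequenced. Both lines descend from one intercross of genetically variable inbred strains. The High-Active line was bred for home cage activity and the Control line was kept without selection, and all mice were males of generation 17, aged about 6.5 months. Each mouse received 10 ml/kg of 0.9% saline intraperitoneally 2 hours after lights off and was killed 2 hours later, when its whole bilateral striatum, dorsal and ventral, was dissected from a coronal slice of about 1.7 mm. There is 1 selected line and 1 Control line, so effects of selection and of random drift between them cannot be told apart. The labels place High-Active mice 499 and 871 under the same sire and dam, whereas the other 8 mice each came from their own pair of parents.

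The striatum integrates cortical and dopaminergic input to control movement and reward. Most of its neurons are GABAergic projection neurons of the direct pathway, marked by the dopamine receptor Drd1, or of the indirect pathway, marked by Drd2. Vesicle release at its synapses runs through SNARE proteins, and dendritic spines are shaped by actin turnover.

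In re-phenotyping, saline High-Active mice traveled 0.5833 to 1.1563 km/day, with a median of 0.9652, and saline Control mice 0.1998 to 0.3856 km/day, with a median of 0.2764. The ranges did not overlap (difference of means 0.639 km/day, two-sided exact permutation test, p = 0.00794, the smallest that 5 against 5 can give). After the injection, the labelled distance, given without a unit, was 46.41 to 88.06 in High-Active and 17.37 to 45.43 in Control mice (exact permutation test, p = 0.00794). Body mass was 24.5 to 42 g against 24.2 to 45.4 g (exact permutation test, p = 0.69). Both of these distances separated the lines completely, whereas body mass overlapped almost throughout. The labelled phenotype of postnatal day 60, given without a unit, overlapped as well. It was 0.1461 to 1.0385 in Control mice, highest in mouse 883, and 0.5270 to 0.8433 in High-Active mice.

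Between 34392988 and 46454129 read pairs per saline mouse were counted on genes, and the line medians of 41068475 (High-Active) and 44311883 (Control) lay within that range. A gene was called when edgeR's quasi-likelihood test gave a Benjamini-Hochberg adjusted p under 0.1 over all 14792 genes tested. Levels are CPM, reads on a gene scaled to the normalized library size, and per-mouse CPM is listed in the order 411, 448, 469, 477 and 883 for Control mice and 197, 483, 499, 871 and 886 for High-Active mice.

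The libraries differed in the markers of neighbouring tissue. The mean log2 CPM of 8 markers of cortical excitatory neurons was 5.11, 3.64, 4.28, 3.38 and 4.93 in Control mice and 3.68, 2.98, 2.88, 2.83 and 3.94 in High-Active mice. Control mice 411 and 883 carried the most cortical transcript, and the ranges of the lines overlapped. The mean log2 CPM of 4 ependymal markers was 1.51 to 2.45 in Control and 2.40 to 3.19 in High-Active mice. In bulk tissue, fewer cells of a type and less RNA per cell cannot be told apart. Of the 10 mice, 411, 883, 871 and 499 each changed the number of calls by more than 1.5 times when left out, to 350, 187, 188 and 313.

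Of the 14792 genes, 553 (3.74%) were called, 294 (1.99%) higher and 259 (1.75%) lower in High-Active mice. At an unadjusted p under 0.05 there were 2573 (17.4%). The counts of each gene list below are to be read beside these shares. The median size of a called difference was 0.50 on the log2 scale. A difference of more than 2-fold was fitted for 133 called genes, 88 higher and 45 lower. For 341 called genes (2.31% of those tested) all High-Active mice lay on one side of all Control mice, above them for 190 and below for 151. Called or not, the lines did not overlap for 4.23% of the genes tested, with High-Active mice above in 2.24% and below in 1.98%. Without Control mice 411 and 883 the number called was 104, and with the cortical score as a covariate it was 78, of which 67 were among the 553. With the libraries of brothers (499 and 871) summed it was 238, and 36 of the 93 called genes singled out by rule were then not called, at adjusted p values from 0.1 to 0.2, which are given below where a gene is described.

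**Figure D1:**
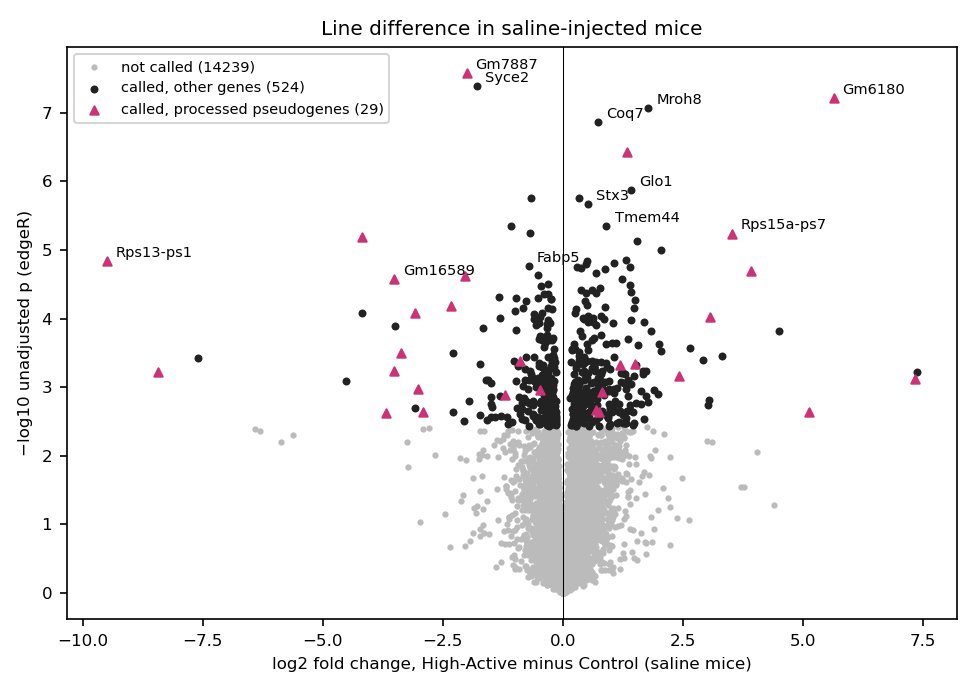
Log2 fold change between High-Active and Control saline mice (x axis) against −log10 of the unadjusted p of edgeR's quasi-likelihood test (y axis), with one point for each of the 14792 genes. Grey points were not called, and the 553 called genes are black points or, for the 29 processed pseudogenes among them, triangles, several of which lie at the widest fold changes.

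Among coding genes, Mroh8, Coq7, Glo1, Adck1, Stx3 and Tmem44 were higher in every High-Active mouse than in any Control mouse. Syce2, Dglucy, Mansc1, Fabp5, Ccdc59, Gmpr, Napb and Ddx47 were lower in every High-Active mouse than in any Control mouse. They are among the 12 genes of each direction with the smallest p whose lines did not overlap. Each has an exact permutation p of 0.00794, the smallest possible here, which follows from how they were chosen, so their order rests on the edgeR fit.

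Mroh8, a gene of the maestro HEAT-repeat family on chromosome 2, stood at 1.08, 1.14, 1.04, 1.04 and 1.79 CPM in Control mice and at 4.40, 5.20, 3.36, 4.69 and 3.29 in High-Active mice. Even Control mouse 883, far above its 4 companions, stayed below the lowest High-Active mouse. The fitted difference was 1.78 ± 0.21 (log2 fold change ± SE, adjusted p = 0.00032). Coq7, the hydroxylase of coenzyme Q synthesis on chromosome 7, stood at 12.7, 13.8, 14.7, 14.4 and 14.1 CPM in Control and 23.0, 22.7, 23.7, 27.2 and 19.4 CPM in High-Active mice. The Control values were tightly grouped, the High-Active values less so, and the lines did not overlap (0.74 ± 0.09, adjusted p = 0.000403). The other 12 tested genes of coenzyme Q synthesis were not called.

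Glo1 detoxifies methylglyoxal and lies on chromosome 17, from 30584936 to 30626871 of GRCm38. Its level was 108, 63.2, 66.0, 59.0 and 135 CPM in Control and 255, 214, 212, 246 and 220 CPM in High-Active mice. Control mice 411 and 883 again stood above the other 3, while the High-Active mice were alike (1.41 ± 0.20, adjusted p = 0.00286). Across the alternatives the Glo1 difference ran from 1.30 without Control mouse 477 to 1.87 without Control mice 411 and 883 together, and it was called in each of the 21 alternatives. The other 10 tested members of the glyoxalase and aldehyde detoxification list were not called.

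Stx3, a plasma-membrane syntaxin, stood at 23.8, 23.1, 26.6, 22.1 and 25.6 CPM in Control and 34.0, 29.1, 33.9, 39.2 and 36.9 CPM in High-Active mice. The lowest High-Active value exceeded the highest Control value by a small margin (0.51 ± 0.08, adjusted p = 0.00321). Adck1, which encodes a mitochondrial kinase-like protein, differed by 0.34 ± 0.05 (adjusted p = 0.00286). Tmem44, encoding a transmembrane protein, ranged from 20.4 to 23.7 CPM in Control and from 28.1 to 54.9 CPM in High-Active mice (0.91 ± 0.14, adjusted p = 0.00558). Its High-Active values were spread nearly 2-fold, its Control values hardly at all. Also higher were Acy3, an aminoacylase (1.54 ± 0.25, adjusted p = 0.00681), Rad21l, a meiotic cohesin subunit (2.05 ± 0.34, adjusted p = 0.00859) and Iqck (1.31 ± 0.23, adjusted p = 0.0104), whose highest level was 5.32 CPM, in High-Active mouse 197 for Acy3.

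Among the lower genes, Syce2, a component of the central element of the synaptonemal complex in meiosis, stood at 2.37, 2.06, 2.94, 2.35 and 3.01 CPM in Control and 0.866, 0.696, 0.435, 0.654 and 0.999 CPM in High-Active mice. The highest High-Active mouse was below the lowest Control mouse by more than 2-fold (-1.80 ± 0.21, adjusted p = 0.000304). Dglucy, the D-glutamate cyclase of mitochondria, fell from 10.9 to 13.3 CPM in Control mice to 6.54 to 8.51 CPM in High-Active mice (-0.67 ± 0.10, adjusted p = 0.00286). Mansc1, a membrane protein gene, was also lower (-0.69 ± 0.11, adjusted p = 0.00612), as was a gene that the annotation used here does not name, ENSMUSG00000021020 (-1.08 ± 0.17, adjusted p = 0.00558).

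Napb, whose SNAP protein helps to take SNARE complexes apart, was at 381, 316, 366, 335 and 349 CPM in Control and 266, 244, 271, 293 and 206 CPM in High-Active mice. The lines were separate (-0.45 ± 0.08, adjusted p = 0.014), with an SD of log2 CPM of 0.11 in Control and 0.19 in High-Active mice. With the cortical score as a covariate, Napb differed by -0.39 and had an adjusted p of 0.133. Gmpr, the GMP reductase of purine metabolism, differed by -0.30 ± 0.06 (adjusted p = 0.0135) and, with that covariate, by -0.26 (adjusted p = 0.12). Ddx47, an RNA helicase gene, differed by -0.32 ± 0.06 (adjusted p = 0.0148), and Ccdc59 by -0.53 ± 0.09 (adjusted p = 0.0114).

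**Figure D2:**
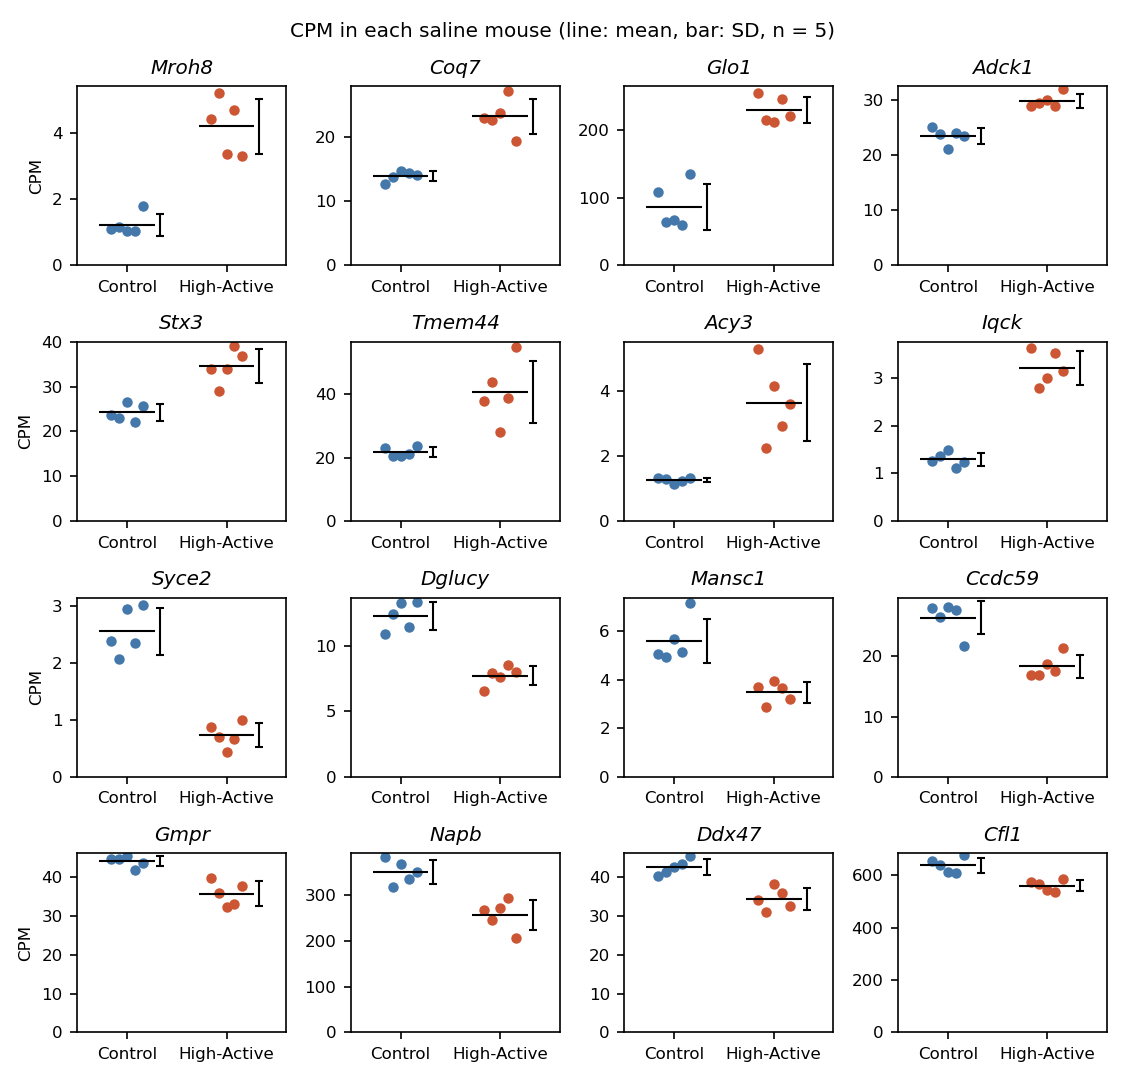
CPM (y axis, from 0) of 16 coding genes in each of the 5 Control and 5 High-Active saline mice, with the mean as a line and the SD as a bar. In each panel the 2 lines do not overlap, and for Ccdc59 the lowest Control mouse and the highest High-Active mouse lie close together.

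A wider separation, with the CPM of every mouse of one line at least 2-fold above that of every mouse of the other, was computed for 18 called genes, 7 higher and 11 lower in High-Active mice. For one of the 11, Tdg-ps, 2 Control mice had 1 count each against 0 in High-Active mice, under the floor of 3 counts, so the separation of those mice is not supported. Of these, 11 are annotated as pseudogenes. The others included Syce2, Dnah3, an axonemal dynein (2.18 to 3.19 CPM in Control, 6.67 to 10.0 CPM in High-Active mice), and Guca1b, a guanylate cyclase activator known from photoreceptors (at most 0.249 CPM in Control, at least 0.512 CPM in High-Active mice). Gm5148 was also among them, but unevenly: it had 2.48 and 2.50 CPM in High-Active mice 871 and 886 and 0.204 to 0.373 CPM in the other 3. Gm47854 had 726 counts over the Control mice and 3 over the High-Active mice, a ratio of 233 (95% exact interval 79.5 to 1134, counting error only). Gm12355, annotated as coding, ranged from 3.95 to 5.25 CPM in Control and from 0.113 to 0.331 CPM in High-Active mice. A second unnamed gene, ENSMUSG00000060393, was lower as well (-3.08 ± 0.86, adjusted p = 0.0755, and 0.147 with the brothers summed).

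Called genes and other genes were compared by how many of their neighbours were called. Within 1 Mb of the start of the called genes, 722 of 12814 pairings with another tested gene (5.63%) led to a called gene. Around genes that were not called, this was 12092 of 330776 (3.66%), near the 3.74% of all genes. These pairings overlap and count the same gene repeatedly, so no test was made. With 2 Mb the shares were 5.48% and 3.72%.

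Over the autosomes and chromosome X, the share of tested genes called ran from 0.921% on chromosome X to 6.44% on chromosome 19, with 5.82% on chromosome 1, 5.62% on chromosome 17 and 5.07% on chromosome 6. Among 5-Mb windows, the most calls fell on chromosome 17 between 25 and 30 Mb, with 13 of 108 tested genes (12%). These 13 were 7 higher and 6 lower genes, Cdkn1a and Stk38 among them. Next by calls was chromosome 19 from 5000001 to 10000000, with 10 of 130 (7.69%). Chromosome 8 between 80 and 85 Mb held 8 of 55 (14.5%), including Syce2 and Dnase2a, and chromosome 7 between 115 and 120 Mb held 5 of 29 (17.2%), all higher. Larger shares were found on chromosome 1 from 60000001 to 65000000 (5 of 24, 20.8%) and chromosome 17 from 5000001 to 10000000 (6 of 31, 19.4%).

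Leading genes had called neighbours in the same direction, in the opposite direction or in both. Coq7 and Iqck lie within 1 Mb of each other, with Vps35l, an endosomal sorting gene, called higher beside them (0.19 ± 0.04, adjusted p = 0.034). Mroh8 had Rbl1, a gene of the retinoblastoma family (0.61 ± 0.11, adjusted p = 0.0145), and Nnat (0.65 ± 0.16, adjusted p = 0.0434) among 30 tested neighbours, both higher. Glo1 had Glp1r, the receptor of glucagon-like peptide 1 (1.51 ± 0.29, adjusted p = 0.0157), and the axonemal dynein Dnah8 (1.36 ± 0.30, adjusted p = 0.0278), both higher. Acy3 had 4 called neighbours, of which Unc93b1, which carries nucleic acid sensing receptors to endosomes (1.06 ± 0.18, adjusted p = 0.0104), and Gm49405 were higher and Ssh3 and 1810055G02Rik lower. With the brothers summed, Gm49405 (adjusted p = 0.113), Ssh3 (0.108) and 1810055G02Rik (0.105) were not called. Mansc1, Ddx47 and Fam234b were 3 lower genes within one stretch of chromosome 6. Around Syce2, 8 of 53 neighbours were called, 5 higher and 3 lower. Opposite to the leading gene beside them were Csnk2a1, lower near Rad21l and Rps15a-ps7, Zfp423, higher near Rps13-ps1, Gm5814, lower near Guca1b, and Ccdc89, higher near Gm2546. Zfp423 (adjusted p = 0.164), Gm5814 (0.105) and Ccdc89 (0.105) were not called with the brothers summed. Of the leading genes on the annotated chromosomes, Adck1, Stx3, Dnah3, Fabp5, Ccdc59, Gmpr and Napb had no called neighbour within 1 Mb. The same held for Gm6180, Gm6166, Gm7887, Gm16589, Gm13991, Ptges3-ps, Tdg-ps and Gm47854.

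Processed pseudogenes are copies of messenger RNA inserted elsewhere in the genome. Of 310 tested, 29 (9.35%) were called, 13 higher and 16 lower, against 498 of 13734 protein-coding genes (3.63%), shares given without a test. A gene near 0 CPM in one line can pass the filter through the mice of the other line alone, which builds in a difference. Gm6180 (mean 0.26 CPM in Control mice) and Rps13-ps1 (0.0095 CPM in High-Active mice) were that low. The shares are therefore not read as a trait of pseudogenes. Every one of the 29 shared an uninterrupted identical stretch of at least 100 bases, the length of a read, with its closest coding sequence, as did 241 of the 281 that were not called. A read pair that lies wholly in such a stretch matches both genes, and between 6.14% and 7.01% of the read pairs of the saline mice were set aside as aligning to more than one place. The following 60-base windows are given 5′ to 3′ from the GENCODE M21 transcripts of GRCm38. They are the kind of sequence in which the counts of 3 pairs described next had to be told apart. For each pair, the aligned window without a gap that held the most differing bases was taken, so no other such window differs at more. Capitals mark the 2 bases that differ.
Gm6180, bases 182 to 241 of its transcript: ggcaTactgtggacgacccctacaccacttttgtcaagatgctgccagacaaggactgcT
Cfl1, bases 182 to 241 of its coding sequence: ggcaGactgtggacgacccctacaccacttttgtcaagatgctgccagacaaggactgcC
Rps13-ps1, bases 401 to 460 of its transcript: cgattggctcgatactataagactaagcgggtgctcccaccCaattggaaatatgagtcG
Rps13, bases 370 to 429 of its coding sequence: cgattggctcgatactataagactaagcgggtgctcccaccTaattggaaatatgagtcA
Gm6166, bases 336 to 395 of its transcript: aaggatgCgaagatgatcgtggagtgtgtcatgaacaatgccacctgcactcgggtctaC
Fabp5, bases 334 to 393 of its coding sequence: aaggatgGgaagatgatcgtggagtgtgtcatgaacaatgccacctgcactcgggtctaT

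For 5 of the 29 called pseudogenes, the closest coding gene was itself called, in the opposite direction. The fitted signs of pseudogene and coding gene were opposite for 23 of the 29 (79.3%) and for 140 of the 274 (51.1%) uncalled ones with a tested coding gene. These pairs were singled out after their values were seen. In one further pair, Gm13443 and Glo1, both were called higher.

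Fabp5, which carries fatty acids in the cytosol, lies on chromosome 3, and its copy Gm6166 on chromosome 9. Fabp5 stood at 61.8, 50.1, 51.9, 57.9 and 66.2 CPM in Control and 39.5, 32.3, 26.3, 36.6 and 41.2 CPM in High-Active mice (-0.71 ± 0.13, adjusted p = 0.0104). Gm6166 stood at 0.0527, 3.92, 8.45, 4.17 and 5.26 CPM in Control and 27.0, 21.5, 18.8, 25.4 and 25.2 CPM in High-Active mice (2.42 ± 0.60, adjusted p = 0.0491). The copy was nearly absent in Control mouse 411 and high in all High-Active mice. Added together, the pair came to 54.1 to 71.4 CPM in Control and 45.1 to 66.5 CPM in High-Active mice. The sums overlapped between the lines, although neither gene did alone.

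The sums also overlapped for Fau, which encodes a ribosomal fusion protein, and Gm9843. Fau was lower (109 ± 4.08 CPM in Control, 88.8 ± 8.27 CPM in High-Active mice, mean ± SD, n = 5) and its copy higher (9.04 to 10.6 CPM against 23.6 to 27.9 CPM). Their sums were 114 to 125 CPM and 100.1 to 122 CPM. Rps13, a protein of the small ribosomal subunit, was higher (62.5 to 71.8 CPM against 70.3 to 87.1 CPM, adjusted p = 0.0588, and 0.105 with the brothers summed), whereas Rps13-ps1 had 1946 counts over the Control mice and 2 over the High-Active mice. That is a ratio of 938 (95% exact interval 259 to 7748, counting error only). Control mouse 883, with 5.30 CPM, stood well below the other Control mice, which ranged from 9.58 to 11.2 CPM. The sums of Rps13 and its copy were 72.5 to 77.9 CPM in Control and 70.4 to 87.1 CPM in High-Active mice.

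For Cfl1 the copy was a small part of the sum. Cfl1, the actin-severing cofilin on chromosome 19, stood at 653, 641, 612, 608 and 678 CPM in Control and 574, 566, 543, 536 and 588 CPM in High-Active mice (-0.19 ± 0.05, adjusted p = 0.0845, and 0.171 with the brothers summed). Gm6180, on chromosome 8 from 42246911 to 42247408, stood at 0.395, 0.111, 0.318, 0.222 and 0.249 CPM in Control and 11.8, 15.7, 11.9, 12.6 and 14.1 CPM in High-Active mice (5.65 ± 0.66, adjusted p = 0.000305). The sum was 608 to 678 CPM against 549 to 602 CPM, so the lines stayed apart. The sums of Ptges3, a co-chaperone of Hsp90, and Ptges3-ps were 89.3 to 113 CPM in Control and 106 to 120 CPM in High-Active mice, which overlapped. Ptges3 alone was higher (0.50, adjusted p = 0.0195) and its copy lower (-2.33 ± 0.46, adjusted p = 0.018).

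**Figure D3:**
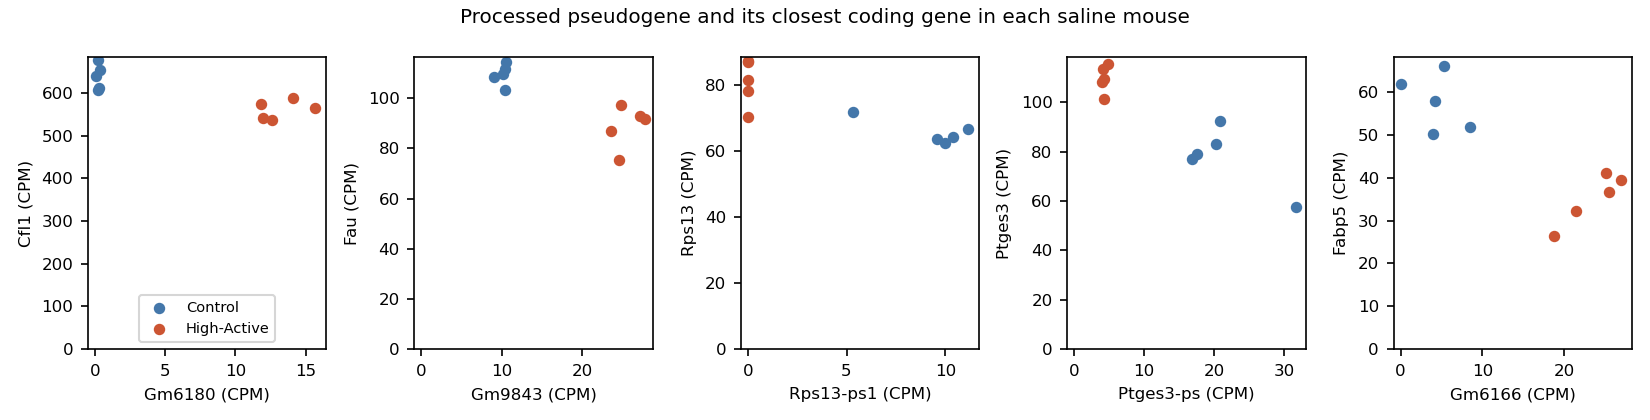
CPM of a called processed pseudogene (x axis) against CPM of its closest coding gene (y axis) for the 5 pairs called in opposite directions, with one point for each saline mouse, Control in blue and High-Active in red. In all 5 panels the High-Active and Control points form separate groups, the group with more of the copy lying lower on average, and in the Fabp5 panel the coding gene falls from a range of 50.1 to 66.2 CPM to one of 26.3 to 41.2 CPM while the copy rises to between 18.8 and 27.0 CPM.

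The other leading pseudogenes had coding genes that were not called. Gm7887, 99.6% identical to Pcnp over the aligned bases, was lower (-2.01 ± 0.22, adjusted p = 0.000304), with 1.31 to 2.77 CPM in Control and 0.433 to 0.569 CPM in High-Active mice. Rps15a-ps7 was higher (3.53 ± 0.57, adjusted p = 0.00612) and Gm16589 lower (-3.51 ± 0.64, adjusted p = 0.0119). Gm16589 was uneven in Control mice, at 10.6, 0.723, 9.48, 5.26 and 4.26 CPM, against at most 0.686 CPM in High-Active mice. Control mouse 448 thus lay just above the High-Active mice. With the cortical score as a covariate Gm16589 was not called (adjusted p = 0.12). Tdg-ps had 219 counts over the Control mice and 0 over the High-Active mice, at least 70.4-fold higher in Control when 3 counts over the High-Active group are taken as the floor. Its counts came from Control mice 411, 469 and 883, at 1.85, 1.63 and 1.59 CPM, whereas 448 and 477 had under 0.03 CPM. Gm13991, Gm4654 and Gm2546 were also at least 2-fold lower in every High-Active mouse, but with the brothers summed Gm4654 (adjusted p = 0.113) and Gm2546 (0.154) were not called.

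Markers of the labelled tissue were high in both lines. None of the 14 tested genes of striatal projection neurons was called by edgeR, nor by DESeq2, and 1 had an unadjusted p under 0.05. Their median difference was -0.08, beside -0.00 over all genes tested. Rasgrp2 (157 to 222 CPM in Control, 119 to 178 CPM in High-Active mice) and Rasd2 had the smallest p values. The mean log2 CPM of the list was 9.17 to 9.47 in Control mice and 8.79 to 9.47 in High-Active mice, lowest in mice 197 and 871. Direct pathway genes (7 tested), indirect pathway genes (5) and striatal interneuron genes (8) also held no member called by edgeR or DESeq2, with 1, 0 and 1 at an unadjusted p under 0.05.

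All 8 fitted differences of cortical excitatory neuron genes were negative, with a median of -1.19. Of the 8, 2 were called and 7 had an unadjusted p under 0.05. Slc17a7, the vesicular glutamate transporter of cortical neurons, stood at 569, 201, 279, 184 and 494 CPM in Control and 178, 93.5, 74.5, 86.1 and 215 CPM in High-Active mice (-1.41 ± 0.41, adjusted p = 0.0857). Neurod2, a transcription factor of the same neurons, stood at 19.8, 7.17, 10.3, 6.83 and 20.8 CPM and at 6.31, 3.11, 2.86, 3.19 and 7.47 CPM (-1.50 ± 0.41, adjusted p = 0.0711). In both genes Control mice 411 and 883 were highest, and the lines overlapped. Without those mice the differences were -0.77 and -0.82 and neither was called, and with the brothers summed the adjusted p values were 0.184 and 0.16.

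All 4 genes of ependymal cells, the ciliated lining of the ventricles, had positive fitted differences with a median of 1.07, and 2 were called, both higher. Foxj1, the transcription factor of motile cilia, ranged from 7.14 to 12.6 CPM in Control and from 11.9 to 20.9 CPM in High-Active mice (1.03 ± 0.28, adjusted p = 0.0711, and 0.141 with the brothers summed). Ccdc153 ranged from 1.91 to 3.54 CPM and from 4.92 to 9.73 CPM, without overlap (1.67 ± 0.41, adjusted p = 0.047, and 0.103 with the brothers summed). In High-Active mouse 483 the mean of the 4 was 2.40, below the 3.02 to 3.19 of its line and near the highest Control mouse.

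Motile cilium genes, gathered by their name prefixes after the values were seen, are listed beside them. Of 56 tested, 13 were higher and 0 lower, 32 higher and 2 lower at an unadjusted p under 0.05, and the median difference was 0.60. Dnah3 led (1.69 ± 0.35, adjusted p = 0.0199), followed by Dnah8, Cfap45 (0.89 ± 0.21) and Dnah5 (0.92 ± 0.22), and Hydin, a protein of the central pair of the axoneme, ranged from 1.79 to 3.20 CPM in Control and from 4.15 to 6.84 CPM in High-Active mice (1.35 ± 0.34, adjusted p = 0.0518). The mean log2 CPM of the 56 was 1.91 to 2.32 in Control mice and 2.31 to 2.76 in High-Active mice, lowest again in mouse 483. In amphetamine mice, the median difference of these genes was 0.20 and that of the ependymal genes 0.43. Dnah8, the neighbour of Glo1 described above, differed there by 1.15 (adjusted p = 0.0926) and Dnah3 by 0.37. Whether the Dnah8 difference goes with the cilium genes or with its chromosomal neighbours was not tested. With the cortical score as a covariate, none of the 56 was called, although Dnah3 (1.40) and Dnah8 (1.28) still had large fitted differences. DESeq2 called 26, the likelihood-ratio test 27 and the fit of the saline mice alone 19, whereas summing the brothers gave 5 and without Control mice 411 and 883, 1 was. Without single mice the number called was 4 (411), 7 (448), 2 (883), 5 (499), 2 (871) and 7 (886), and 9 to 14 without any other. Without Control mice 411 and 883, Foxj1 (0.89) and Ccdc153 (1.59) kept similar fitted differences and were not called with the fewer mice. How far the amount of ventricular lining or cortex in the dissected tissue moved the other genes was not tested.

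**Figure D4:**
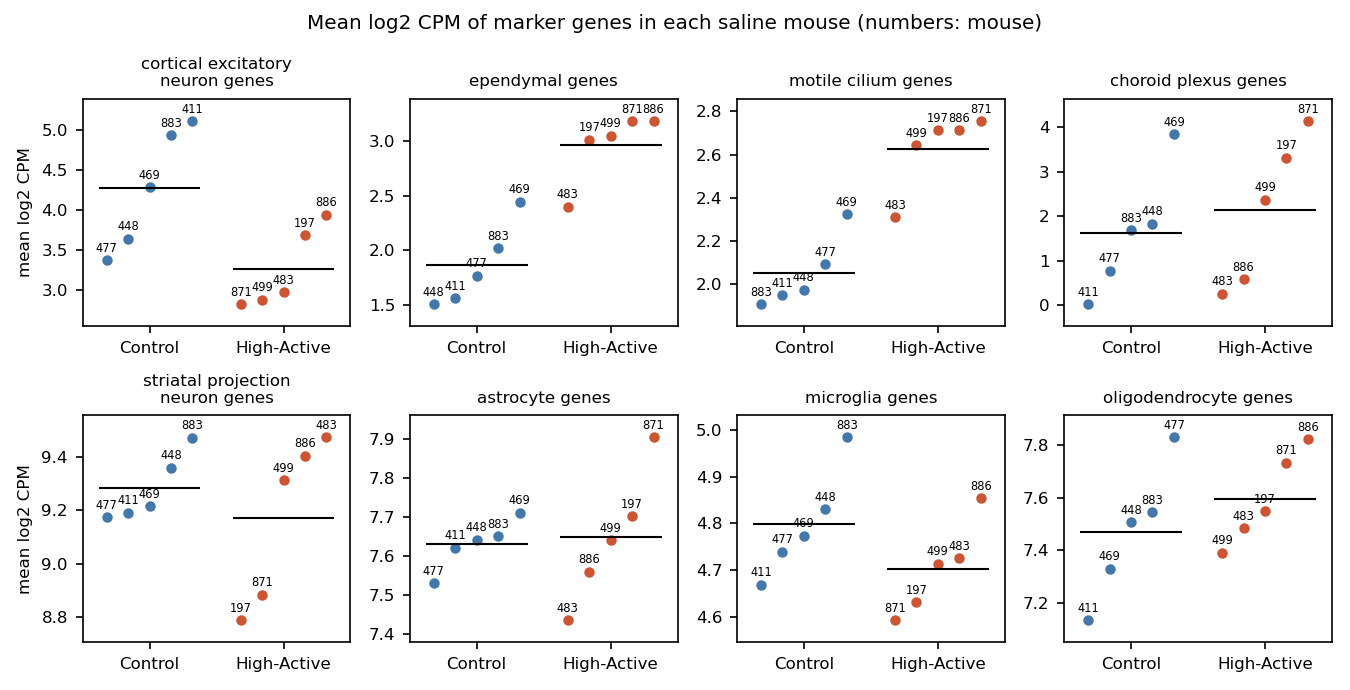
Mean log2 CPM of 8 gene lists (y axis) in each saline mouse, Control in blue and High-Active in red, with mouse numbers beside the points and the line mean as a bar. Cortical genes are highest in Control mice 411 and 883 (5.11 and 4.93), ependymal and motile cilium genes are higher in the High-Active mice apart from 483, and choroid plexus genes spread widely in both lines.

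Choroid plexus genes (8 tested, none called by edgeR or DESeq2, 0 at an unadjusted p under 0.05) had means of 0.03 to 3.84 log2 CPM in Control and 0.25 to 4.15 in High-Active mice. Ttr, the transthyretin that defines the tissue, ran from 1.03 to 651 CPM in Control and from 1.42 to 736 CPM in High-Active mice. Hypothalamic peptide genes (3 tested, Avp and Pmch among them, none called by edgeR or DESeq2 and 0 at an unadjusted p under 0.05) had means from -2.01 to 3.01 log2 CPM in Control and from -2.01 to 4.70 in High-Active mice, highest in High-Active mice 197 and 871. Red blood cell genes (5 tested, Hba-a2 and Hbb-bs among them) had none called by edgeR or DESeq2 and 1 at an unadjusted p under 0.05. Endothelial (6), mural and fibroblast (6), oligodendrocyte (10) and oligodendrocyte precursor genes (3) held no call by edgeR, with 0, 2, 1 and 1 at an unadjusted p under 0.05. DESeq2 called 1 mural and fibroblast gene and none of the others. Rgs5, a pericyte gene at 0.51 ± 0.17 (adjusted p = 0.134), had the smallest p among them.

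Of 9 astrocyte genes, 2 were higher and 1 lower. S100b, a calcium-binding protein of astrocytes, stood at 184, 194, 199, 108 and 210 CPM in Control and 118, 92.3, 97.6, 120 and 93.9 CPM in High-Active mice (-0.78 ± 0.15, adjusted p = 0.016). Control mouse 477 lay among the High-Active mice. Aldh1l1 (0.34 ± 0.10, adjusted p = 0.0929) and the gap junction gene Gja1 (0.25 ± 0.08, adjusted p = 0.0961) were higher, and the other 6 were not called. With the brothers summed, the adjusted p was 0.178 for both higher genes. Of 9 microglia genes, Aif1 (-0.60 ± 0.14, adjusted p = 0.0393) and the complement gene C1qc (-0.44 ± 0.11, adjusted p = 0.0603, and 0.129 with the brothers summed) were lower, whereas P2ry12, Tmem119 and Cx3cr1 were not called.

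In the dopamine system, 1 of 4 tested receptors was called. Drd5, a D1-type receptor, stood at 2.29, 2.50, 2.79, 3.02 and 1.72 CPM in Control and 5.12, 3.86, 3.80, 4.58 and 3.22 CPM in High-Active mice (0.74 ± 0.18, adjusted p = 0.0514). The lines did not overlap, and Drd5 was not called without Control mice 411 and 883 (0.57) or with the brothers summed (adjusted p = 0.1005). Drd1 (-0.10 ± 0.14) and Drd2 (-0.02 ± 0.12) were not called. None of 5 genes of dopamine synthesis, transport and breakdown was called by edgeR or DESeq2 (0 at an unadjusted p under 0.05), Slc18a2 and Maob having the smallest p values. Immediate early genes, which report recent neuronal activity, held no call among 18 by edgeR or DESeq2, with 1 lower at an unadjusted p under 0.05. Their mean log2 CPM was highest in High-Active mouse 499, at 5.82 against 4.55 to 4.81 in the rest of its line, and Fos was 31.1 CPM in that mouse against 8.10 to 12.9 CPM.

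At the synapse, 3 of 19 vesicle and SNARE genes were called and 6 were lower at an unadjusted p under 0.05. Of all genes tested, 3.74% were called and 17.4% had an unadjusted p under 0.05, in either direction. Of the 19 fitted differences, 2 were above 0, and the median was -0.10 (-0.03 in amphetamine mice). The mean log2 CPM of the list was 8.16 to 8.28 in Control and 8.00 to 8.13 in High-Active mice, without overlap. Snap25, a membrane SNARE of neurons, was lower in every High-Active mouse (1472 to 1822 CPM in Control, 1294 to 1392 CPM in High-Active mice, -0.27 ± 0.08, adjusted p = 0.0898). Stx1a stood at 97.0, 58.2, 61.0, 50.8 and 90.3 CPM in Control and 48.4, 33.3, 29.2, 34.1 and 52.3 CPM in High-Active mice (-0.86 ± 0.24, adjusted p = 0.0783). Stx1a was highest in the same Control mice as the cortical markers, 411 and 883, and without them neither Stx1a (-0.52) nor Snap25 (-0.19) was called. With the brothers summed, their adjusted p values were 0.166 and 0.164. With the cortical score as a covariate, Stx1a differed by -0.23 (adjusted p = 0.366) and Snap25 by -0.10 (adjusted p = 0.668). In amphetamine mice Stx1a differed by -0.20 and Snap25 by -0.02, and neither was called. Stx3, higher as given above, was called in each of the 21 alternatives. Syp, which encodes synaptophysin, was 834 to 914 CPM and 684 to 1013 CPM (-0.10 ± 0.09, adjusted p = 0.599).

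None of 22 glutamate receptor genes, 12 GABA-A receptor subunits or 14 postsynaptic scaffold genes was called by edgeR or DESeq2, with 1, 2 and 0 at an unadjusted p under 0.05. Of 20 trans-synaptic adhesion genes, Nlgn2, the neuroligin of inhibitory synapses, was lower by a small amount (-0.13 ± 0.04, adjusted p = 0.0868, and 0.124 with the brothers summed). The adhesion receptor Adgrl3 stood at 92.2, 110, 93.1, 104 and 94.9 CPM in Control and 61.6, 122, 65.9, 64.5 and 97.2 CPM in High-Active mice (-0.27 ± 0.20, adjusted p = 0.524). High-Active mice 483 and 886 lay within or above the Control range, and the other 3 below it. Its ligand Flrt3 was 51.3 to 58.0 CPM and 44.7 to 58.3 CPM (-0.10 ± 0.07, adjusted p = 0.536). Among neuropeptides (14 tested, none called by edgeR or DESeq2, 2 higher and 2 lower at an unadjusted p under 0.05), Cck (-0.94 ± 0.35, adjusted p = 0.168) and Nts (0.74 ± 0.28, adjusted p = 0.184) had the smallest p values.

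Of 22 actin turnover genes, 3 were called, beside 3.74% of all genes tested. Besides Cfl1, the cofilin phosphatase genes Ssh3 (-0.28 ± 0.08, adjusted p = 0.0682) and Ssh1 (0.25 ± 0.07, adjusted p = 0.0711) moved in opposite directions. Ssh3 lies within 1 Mb of Acy3. Without Control mice 411 and 883, none of the 22 was called, with fitted differences of -0.28 for Ssh3, 0.22 for Ssh1 and -0.14 for Cfl1. With the brothers summed, none was called either (adjusted p = 0.108 for Ssh3, 0.164 for Ssh1 and 0.171 for Cfl1). Nor was any called with the cortical score as a covariate. There Ssh3 differed by -0.23 (adjusted p = 0.393), Ssh1 by 0.19 (0.441) and Cfl1 by -0.08 (0.593).

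Of 36 canonical Wnt genes, 2 were called, both higher, and 7 were higher and 1 lower at an unadjusted p under 0.05. The shares over all genes tested, in either direction, were 3.74% called and 17.4% at an unadjusted p under 0.05. The list included the genes that the study discussed on these mice, so its direction is not independent evidence. Rassf8 was 10.1 to 15.8 CPM in Control and 18.1 to 23.8 CPM in High-Active mice (0.69 ± 0.13, adjusted p = 0.0148), and Tmem44 is given above. With the cortical score as a covariate, Rassf8 differed by 0.48 and had an adjusted p of 0.124. Dpysl5 (0.22 ± 0.08, adjusted p = 0.188), Amotl2 (0.23 ± 0.11, adjusted p = 0.29) and Ctnnbip1 (0.17 ± 0.10, adjusted p = 0.397) had positive fitted differences and were not called. Gsk3b, the kinase that marks beta-catenin for breakdown, was 251 to 273 CPM and 226 to 270 CPM (-0.11 ± 0.05, adjusted p = 0.274), and Ctnnb1, beta-catenin itself, was 401 to 461 CPM and 445 to 511 CPM (0.08 ± 0.05, adjusted p = 0.393).

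Metabolic lists held few calls. Among 29 genes of cholesterol and fatty acid synthesis, Acacb, an acetyl-CoA carboxylase, was higher (3.47 to 5.02 CPM in Control, 5.56 to 9.32 CPM in High-Active mice, 0.90 ± 0.20, adjusted p = 0.0304), and 4 were lower at an unadjusted p under 0.05. Among 30 PPAR and fatty acid oxidation genes, Fabp5 was the one called, with the copy described above beside it. The 84 nuclear respiratory chain genes held no call (edgeR and DESeq2, 1 higher and 4 lower at an unadjusted p under 0.05). Of 12 genes of the mitochondrial genome, mt-Nd5 was higher (0.32 ± 0.08, adjusted p = 0.0543). Of 80 cytosolic ribosomal protein genes, Rps13 was called, and its copy is described above.

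Among 18 circadian clock genes, Bhlhe40 (-0.36 ± 0.10, adjusted p = 0.0733) and Nr1d2 (-0.18 ± 0.05, adjusted p = 0.0939) were lower, and 15 of the 18 fitted differences were negative, with a median of -0.16. With the brothers summed, their adjusted p values were 0.1005 and 0.196. Per1 and Per2, core repressors of the clock, were not called. Among 12 glucocorticoid response genes, Cdkn1a, a cell cycle inhibitor, was higher (4.95 to 8.25 CPM in Control, 10.4 to 22.4 CPM in High-Active mice, 1.11 ± 0.24, adjusted p = 0.0298), and so was Ddit4 (0.32 ± 0.09, adjusted p = 0.0845, and 0.115 with the brothers summed). Fkbp5 and Sgk1, also induced by glucocorticoids, were not called. Cdkn1a lies in the chromosome 17 window with the most calls. None of 11 MHC class I and antigen presentation genes was called by edgeR or DESeq2, with 1 higher and 3 lower at an unadjusted p under 0.05, and H2-K1 (-0.53 ± 0.21, adjusted p = 0.198) and Tap2 came first by p.

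The line difference was then read in the other 10 mice, which received 0.25 mg/kg amphetamine. They are different animals, but all 20 share the fit's dispersions. By the labelled parents, every High-Active saline mouse has a brother among them, and so do Control mice 411 and 448. Of the 553 genes, 526 (95.1%) had the same sign in amphetamine mice, as did 70.9% of all 14792 genes. There, 193 genes (1.3%) were called, 81 of the 553 among them and 0 in the opposite direction. The fitted difference was smaller in amphetamine mice for 505 of the 553, with a median size of 0.26 against 0.50. The genes were chosen on their saline values, so this shrinkage is not a test of the treatment. With the treatments fitted separately, 501 genes were called in saline mice, 472 of them passed the filter in amphetamine mice, and 41 of those were called there.

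Of the 36 leading genes, all 36 kept their sign and 17 were called in amphetamine mice. Gm6180 (5.65 in both), Syce2 (-1.80 and -1.69), Stx3 (0.51 and 0.75), Tmem44 (0.91 and 0.92) and Fabp5 (-0.71 and -0.75) had similar fitted log2 differences in saline and in amphetamine mice. For others the fitted difference was nearer to 0 in amphetamine mice, such as Rps13-ps1 (-9.50 and -2.92), Gm47854 (-7.60 and -0.86), Rps15a-ps7 (3.53 and 1.16), Dnah3 (1.69 and 0.37) and Glo1 (1.41 and 0.67). For Glo1 the difference between these line differences was -0.74 (unadjusted p = 0.017, adjusted p = 0.999995). No gene of the 14792 passed the adjusted threshold for that difference in edgeR, and 440 (2.97%) had an unadjusted p under 0.05.

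**Figure D5:**
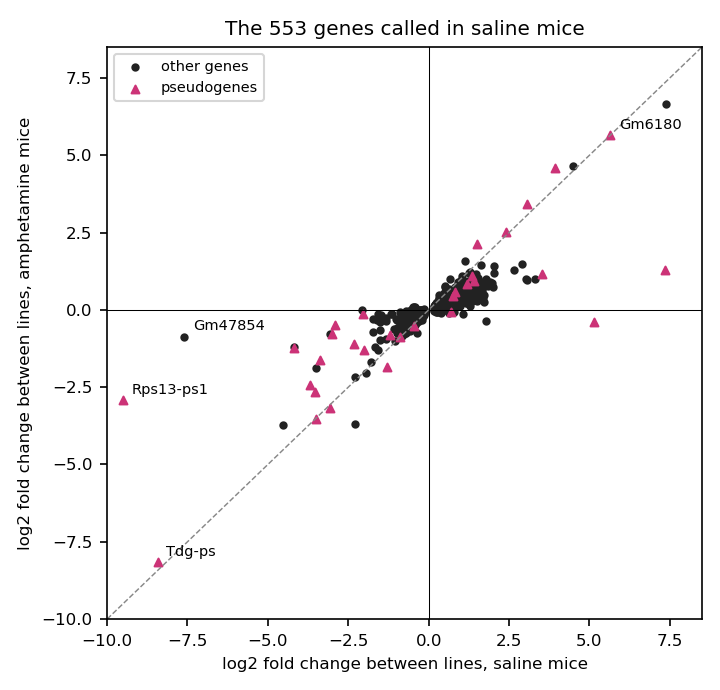
Log2 fold change between the lines in saline mice (x axis) against that in amphetamine mice (y axis) for the 553 genes called in saline mice, with pseudogenes as triangles and the dashed line marking equal differences. Of the 553 points, 526 lie in the quadrants of equal sign, and most lie nearer to 0 on the y axis than on the x axis.

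At the threshold, Smim20 (0.27 ± 0.08, adjusted p = 0.0995) and Adcy1, a neuronal adenylate cyclase (-0.71 ± 0.21, adjusted p = 0.0998), were the last genes called, and with the brothers summed neither was (adjusted p = 0.129 and 0.2001). Phf1 (-0.19 ± 0.06, adjusted p = 0.101) and Odf3b (1.16 ± 0.35, adjusted p = 0.102) were the first not called. Adcy1 was highest in Control mice 411 and 883, at 438 and 559 CPM, like the cortical markers. The lines did not overlap for Phf1 and Odf3b.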

How the data were processed

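Striatal RNA of 20 male mice was sequenced (stranded libraries, paired reads of 100 bases), with 5 mice in each combination of line and treatment. Per the labels and the study's methods, the authors aligned reads to GRCm38 with TopHat2 2.0.10 on Ensembl annotation and counted them per gene with HTSeq 0.6.1. The deposited values are raw counts per gene, not normalized, and the strand setting of the counting is not given in the sources used here. Lines for unassigned reads were left out of library sizes. Between 82.5% and 83.7% of the read pairs of saline mice were counted on genes and between 8.29% and 9.55% fell on no feature.

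Genes over 1 CPM in at least 3 of the 20 mice were kept (14792) and TMM-normalized, and the 4 group means were fitted with edgeR 4.0.16 (R 4.3.3, quasi-likelihood test, Benjamini-Hochberg threshold 0.1). CPM used the TMM-scaled library sizes and log2 CPM a prior count of 2. SEs were the log2 fold change divided by the square root of F. Single values were compared by exact permutation over the 252 regroupings of the 10 mice. Alternatives used DESeq2 1.42.0 and limma 3.58.1, among others. Positions came from GENCODE M21, on the same genome build. The nearest coding gene of each processed pseudogene was found with blastn. Scripts were tested on simulated counts. No 2 saline libraries agreed within sampling noise (smallest chi-square per gene 17.4). Members and gene lists were chosen with earlier results of these data known. Leading genes were the 12 with the smallest p in each direction among called genes without overlap between lines, plus those with a 2-fold gap, at most 10 in each direction. Other named genes were those of the study, the called members of 36 gene lists (otherwise the 2 with the smallest p), called neighbours within 1 Mb, and 2 genes on either side of the threshold. Further genes were named after their values were seen. Counting error is small at this depth for all but the rarest transcripts, where 3 counts were taken as the floor. Separate cages or days are not given, so p values measure the spread between these mice.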

Additional observations from a re-analysis of the deposited data

Results flagged for a closer look

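Single mice stood apart from their own group in 12 of the 166 groups of 5 values examined (log2 CPM of the leading and study genes and the mean log2 CPM of each gene list). Chance alone flags about 1 in 20 groups. Each is given here as a value.

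Control mouse 883 was high for Mroh8 (0.88, others 0.12 to 0.25) and low for Rps13-ps1 (2.42, others 3.27 to 3.49) and Ccdc59 (4.44, others 4.73 to 4.82). Control mouse 411 was low for Gm9843 (3.18, others 3.35 to 3.41) and for Gm6166 (-3.31, others 1.99 to 3.09). Control mouse 477 was high for Gm13991 (2.59, others 1.49 to 1.62), and High-Active mouse 886 was low for Gm12355 (-2.63, others -1.63 to -1.40).

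Among lists, High-Active mouse 483 was low for ependymal genes (2.40, others 3.02 to 3.19) and motile cilium genes (2.31, others 2.64 to 2.76), and High-Active mouse 499 was high for immediate early genes (5.82, others 4.55 to 4.81). Control mouse 448 was high for mitochondrial genome genes (12.05, others 11.98 to 11.99), and High-Active mouse 197 was high for nuclear respiratory chain genes (6.07, others 5.95 to 5.96). The named genes among these are leading genes, which were chosen for having no overlap between the lines. That the mouse standing apart was still on its own line's side follows from this choice.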

How the results depend on the processing

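The number of genes called, 553 (294 higher, 259 lower), depended on the setting. It was 208 (122 higher, 86 lower) at an adjusted p under 0.05, 1111 (574 and 537) with DESeq2 and 1091 (608 and 483) with a likelihood-ratio test and robust dispersions. Summing brothers of one treatment, such as 499 and 871, gave 238 (137 and 101). The cortical score as a covariate gave 78 (39 and 39). Further alternatives were added after the data were seen. Leaving out Control mice 411 and 883 gave 104 (56 and 48), and cortical and ependymal scores as covariates gave 47 (16 and 31), of which 27 were among the 553. The cause of these changes was not tested. RLE normalization (552), the family block in limma-voom (508), no low-count filter (447), a filter of 5 mice (526) and the 10 saline mice alone (501, of which 369 were among the 553) stayed within 1.5 times. With each mouse left out in turn, calls ranged from 187 to 691 (103 to 358 higher, 79 to 333 lower), and 144 of the 553 were called every time. In all 21 alternatives, 17 were called. Saline-called genes also called in amphetamine mice fell from 81 to 41 with separate fits. With both scores as covariates, 3 of the 553 changed sign, all of them higher in the fit reported, and in the other alternatives no fitted sign among the 553 changed.

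Signs changed for these named genes, none of them called in saline mice. With the cortical score as a covariate, the log2 difference became 0.0035 for Cck, 0.30 for Nr4a2, -0.0173 for Slc5a7, 0.0397 for Dlgap1 and -0.23 for Folr1. With both scores it became 0.0418 for Gria3, 0.26 for Nr4a2, -0.0319 for Isl1, -0.0209 for Sp9, -0.43 for Slc18a2, 0.17 for Dlgap1, -0.0116 for Cnp, -0.0427 for Ctnnbip1, -0.99 for Otx2, -0.0246 for Pmch, 0.10 for Adgrl3, 0.000965 for Syp and -2.15 for Folr1. With single mice left out, Gpr6 ranged from -0.0136 (without High-Active mouse 886) to 0.162 and Hbb-bs from -0.12 (without High-Active mouse 483) to 1.12, and Hbb-bs was -0.000301 without Control mice 411 and 883. No paired analysis was possible because the labels number each mouse by its own animal ID and no family has mice of both lines, so the lines could not be compared within pairs. Families do span the treatments, which the family block takes into account.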
